A study of Mus musculus with 2 samples.

Results

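Receptors of the tumour necrosis factor (TNF) superfamily were examined in mature splenic B cells: Tnfrsf13c, Tnfrsf13b, Tnfrsf17, Cd40, Cd27, Tnfrsf1a, Tnfrsf1b and Fas. The 8 genes were taken as a family, by name, and every probe set whose platform annotation names 1 of them and no other gene was used. All 8 were measured, of 12393 genes in all, by 10 of the 22626 gene probe sets on the array, with a pair each for Cd40 and Tnfrsf1b. The study asked what the loss of SRF (serum response factor), which drives immediate early and cytoskeletal genes, does to these B cells. Its wild-type group, 2 arrays, is described here, and SRF-deficient cells were not analysed here. Both samples were unmodified mouse spleen cells, positive for surface IgM and IgD, sorted by flow cytometry. Strain, sex and age are not given in the sources used here, and neither is the number of mice. Replicate 1 and replicate 2 are names in accession order.

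TNF superfamily receptors bind trimeric ligands of the TNF family and signal through TRAF adaptors to the NF-kB transcription factors, or, for receptors with a death domain, also to caspases. In mature B cells the receptor for BAFF sustains survival, and CD40 receives T cell help through CD40 ligand. TACI and BCMA, encoded by Tnfrsf13b and Tnfrsf17, bind BAFF and APRIL, and BCMA is best known from plasma cells. Fas is known as a death receptor of activated and germinal centre B cells.

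Values are MAS5 signals, the array's brightness for a probe set on a linear scale. Their mean after trimming 2% at each end differed by 0.018% between the arrays, while their medians were 103 on replicate 1 and 66.6 on replicate 2, so differences are given under several scalings. A signal was read against a floor, set at the 90th percentile of 98 probe sets for 60 genes typical of liver, brain, testis and further organs. The floor was 162 on replicate 1 and 89.6 on replicate 2. Probe sets differ in affinity, so the receptors were not ranked against each other by signal. With 2 samples of 1 group no test was possible, and 2-fold is used as a fixed size.

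The arrays stood apart in several ways that no label explains. Xist, the RNA of the inactive X chromosome, gave 740.4 on replicate 1 against 15.3 on replicate 2 by the brightest of its probe sets, while Eif2s3y, a Y-linked gene, gave 3.4 and 248.7, so the arrays carried RNA of different animals, female and male. The immediate early genes Fos and Jun, induced by cell activation and by handling, gave 11856 and 593, and 3029 and 136 by the brighter probe set of Jun. The 3′ to 5′ signal ratio of the Actb control was 3.57 on replicate 1 and 8.15 on replicate 2, and that of Gapdh was 1.31 and at least 9.20, its 5′ signal on replicate 2 being below the floor and set to it. All 18 bacterial hybridisation control probe sets were higher on replicate 1, by 3.39-fold to 13.2-fold. Over all gene probe sets the median log2 difference, replicate 2 minus replicate 1, was -0.33. The spread between the samples, pooled over probe sets that passed both floors, was an SD of 0.66 in log2 signal, or 1.58-fold. What part these differences have in any receptor's difference was not tested.

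Of the 8 receptor genes, 5 were above the floor on both arrays: Tnfrsf13c, Tnfrsf13b, Cd40, Tnfrsf1a and Tnfrsf1b. Across all genes the share was 31.3%, and among the 60 genes of other organs that set the floor it was 5%. Tnfrsf17, Cd27 and Fas were below the floor on both arrays. By probe set, 6 of 10 were above it on both, against 25.4% of all gene probe sets. The genes were picked with earlier results of these arrays known, so nothing particular to the family is read from these shares.

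**Figure D1:**
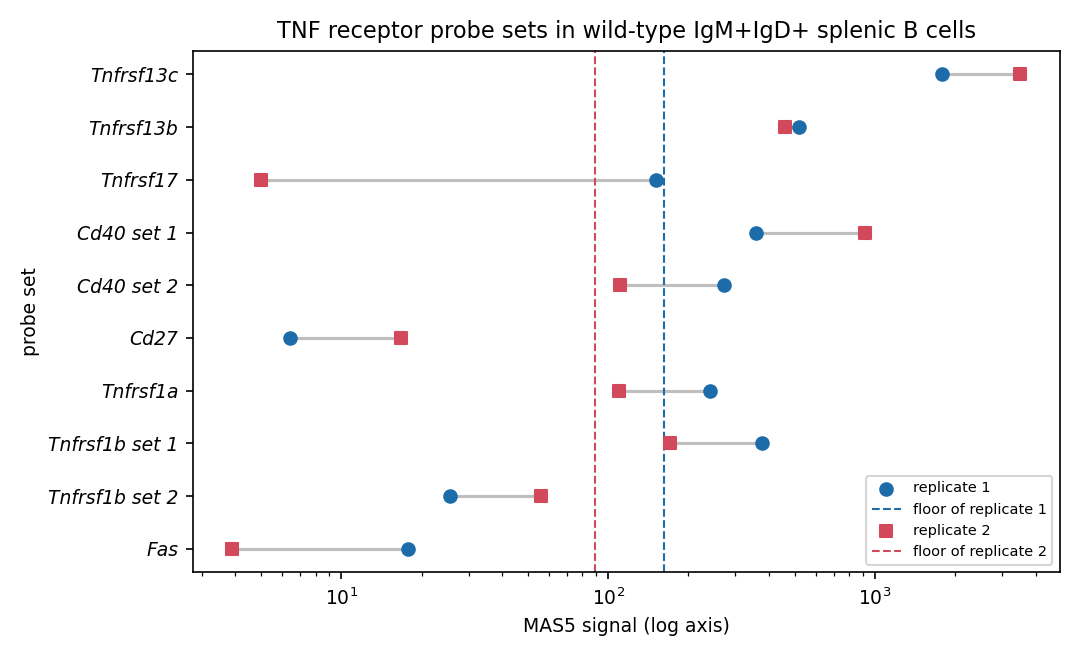
MAS5 signal (log axis) of the 10 receptor probe sets on replicate 1 (circles) and replicate 2 (squares), with each array's floor as a dashed line of the same colour. Tnfrsf13c lies far to the right of both floors, while the probe sets of Tnfrsf17, Cd27 and Fas lie to the left of the floor of their own array.

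The labelled cell type was checked by its markers. Of 8 measured B cell markers, 7 passed both floors, and the commitment factor Pax5 did not, with 21.5 and 15.6. The summed signal of the list by the brightest probe sets was 14998 on replicate 1 and 19145 on replicate 2, but its members did not move together. Cd79a, which encodes a chain that signals for surface IgM and IgD, gave 2931 and 192. The second probe sets of Cd37 and Cd22 gave 1528 and 307, and 889 and 274. Their brighter probe sets went the other way, with 571 and 1631.5 for Cd37 and 4313 and 5301.5 for Cd22. By the brightest probe set, Ms4a1 and Ebf1 were also higher on replicate 2, with 3394 and 6347, and 579 and 1924. All 4 measured follicular markers were above the floor, with a summed signal of 9119 on replicate 1 and 5086 on replicate 2, and 4 of 5 marginal zone markers, with 2885 and 4957. Most of the follicular sum was Klf2, with 6552 and 2579, and Ccr7 was also higher on replicate 1, with 839 and 152.5. Fcer2a was nearly equal by its brighter probe set, with 1081 and 978, and gave 315.5 and 9.4 by 1451713_a_at. Cxcr5 was higher on replicate 2, with 647 and 1377. Of the marginal zone markers, Cr2, Dtx1 and Notch2 were higher on replicate 2 by the brightest probe set. They gave 940 and 2275, 698 and 1088, and 905 and 1290. Cd1d1 was nearly equal by its brightest probe set, with 305 and 280. Its other probe set, 1449130_at, gave 134 and 326, above the floor of replicate 2 only. The part of these shifts in the receptor differences was not tested. Of 7 T cell markers 0 were above the floor of either array, and the receptor chains Cd3e, Cd3d and Cd3g lay between 8.6 and 56.1. Counts above the floor on both arrays were 2 of 6 for monocytes and macrophages, 3 of 6 for neutrophils, 0 of 5 for dendritic cells and 0 of 5 for NK cells. The share of all genes was 31.3%. The measured level is an average over sorted cells, in which fewer expressing cells and less RNA per cell cannot be told apart.

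The receptors for BAFF and APRIL spanned the range from well above the floor to below it. Tnfrsf13c encodes the BAFF receptor, and its only probe set, 1419307_at, gave 1780 on replicate 1 and 3510 on replicate 2 (mean 2645 ± 1223, SD, n = 2). These signals were 11.0 times the floor of replicate 1 and 39.2 times that of replicate 2. The position of the probe set among all gene probe sets hardly moved, at percentile 98.6 on replicate 1 and 98.9 on replicate 2. The difference was 1.97-fold in favour of replicate 2 as deposited, just inside 2-fold. It was 0.98 on the log2 scale, 0.37 after quantile normalization and 1.61 after centring each array on its median. These values have the same sign, and of the scalings tried only median centring takes Tnfrsf13c past 2-fold.

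Tnfrsf13b encodes TACI, a receptor for BAFF and APRIL that restrains B cell numbers. Its probe set 1423182_at gave 517 on replicate 1 and 461 on replicate 2 (mean 489 ± 39.5, SD, n = 2). Among the receptor probe sets above the floor it had the smallest difference between the arrays as deposited, 1.12-fold, within the pooled spread, while after quantile normalization that of Tnfrsf13c was smaller. The sign of that difference depended on scaling, -0.16 on the log2 scale as deposited, -0.51 after quantile normalization and 0.47 after median centring. In either case Tnfrsf13b stood clear of the floor, at 3.19 times its value on replicate 1 and 5.15 times on replicate 2.

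Tnfrsf17 encodes BCMA. Its probe set 1420782_at gave 151 on replicate 1 and 5.0 on replicate 2, below the floor of each array. On replicate 1 it was the receptor closest to the threshold from below, at 0.932 of the floor. On replicate 2 it was at 0.0558 of the floor, so the arrays agreed only in that neither passed, and no fold is given. Of 5 plasma cell markers, 2 were above the floor on both arrays, Xbp1 and Irf4, both also expressed by other B cells. Sdc1, which encodes the plasma cell surface marker CD138, gave 116 and 52.4 by its brightest probe set. Jchain, the joining chain of secreted IgM, gave 94.7 on replicate 1 and 453.5 on replicate 2, and Prdm1, the plasma cell transcription factor, 222 and 42.2. Jchain and Prdm1 thus passed the floor of opposite arrays, and Tnfrsf17 of neither.

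**Figure D2:**
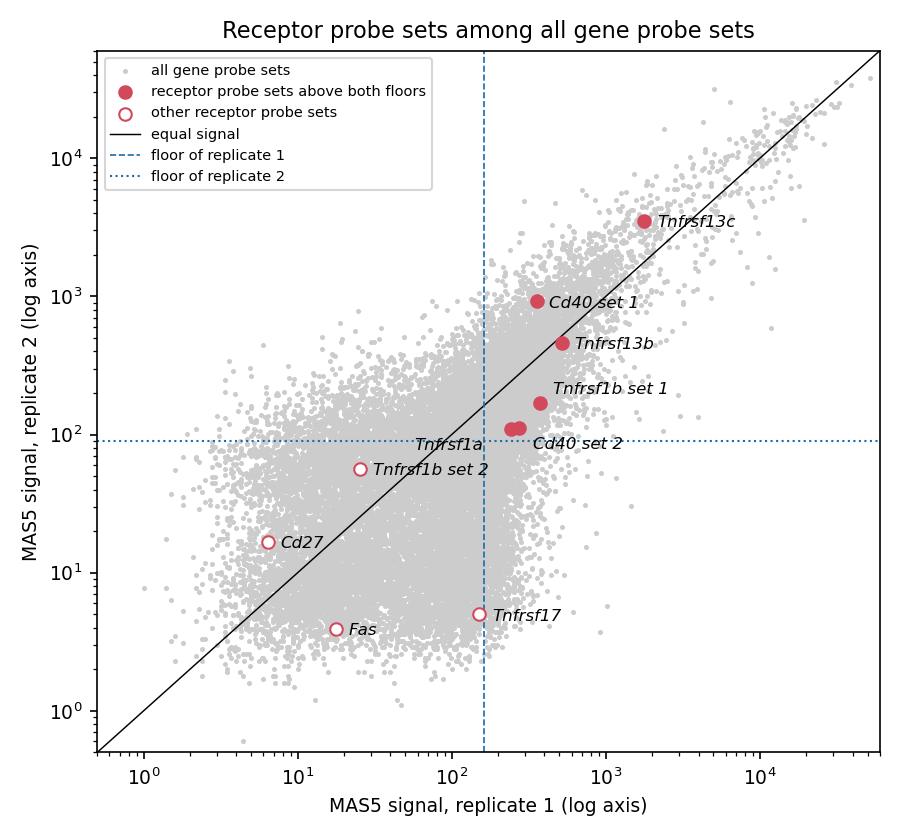
MAS5 signal of every gene probe set on replicate 1 (horizontal, log axis) against replicate 2 (vertical, log axis), with the receptor probe sets in red, filled where above both floors, and the floors as dashed and dotted lines. Tnfrsf13c and Tnfrsf13b lie near the line of equal signal, the Cd40 probe sets lie on opposite sides of it, and Tnfrsf17 and Fas lie in the broad cloud below the floors.

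Because the series concerns SRF, the bases before each receptor's transcription start were searched for the CArG box, the sequence SRF binds. RefSeq promoters of GRCm38.p6 were matched for 7 of the 8 genes, all but Cd40, and the 250 bases before the start were used. A CArG box was found in Tnfrsf17 alone, against 1.47% of all 32851 promoters of the same length. It reads CCATAAATGG, and begins 195 and ends 186 bases before the start. The searched pattern is the same on both strands, so any match on 1 strand is also a match on the other. The letters TATAAA, searched on both strands, were also found in Tnfrsf17 alone, 114 to 109 bases before the start and apart from the CArG box, against 12.4% of all promoters. A kappa-B site, bound by NF-kB factors, was found in 0 of 7, against 7.25% of all. A match is a description of letters and not a site, and without SRF-deficient cells these data do not bear on it. The 3 sequences for the BAFF and APRIL receptors are shown to set the match beside the receptors that carry none, 5′ to 3′ on the gene's strand, with the CArG box in capitals. They lie at chr16:11313559-11313808 on the plus strand for Tnfrsf17, chr15:82224381-82224630 on the minus strand for Tnfrsf13c and chr11:61126505-61126754 on the plus strand for Tnfrsf13b.
Tnfrsf17: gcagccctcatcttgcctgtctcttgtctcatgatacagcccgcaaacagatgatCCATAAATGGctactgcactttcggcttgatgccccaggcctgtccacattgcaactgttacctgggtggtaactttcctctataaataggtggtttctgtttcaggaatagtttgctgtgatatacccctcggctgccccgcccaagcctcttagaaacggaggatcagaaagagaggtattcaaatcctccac
Tnfrsf13c: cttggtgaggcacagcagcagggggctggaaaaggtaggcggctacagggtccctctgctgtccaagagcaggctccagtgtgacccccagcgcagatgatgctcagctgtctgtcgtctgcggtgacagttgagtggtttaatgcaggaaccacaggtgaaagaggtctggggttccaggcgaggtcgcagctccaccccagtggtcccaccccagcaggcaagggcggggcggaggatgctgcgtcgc
Tnfrsf13b: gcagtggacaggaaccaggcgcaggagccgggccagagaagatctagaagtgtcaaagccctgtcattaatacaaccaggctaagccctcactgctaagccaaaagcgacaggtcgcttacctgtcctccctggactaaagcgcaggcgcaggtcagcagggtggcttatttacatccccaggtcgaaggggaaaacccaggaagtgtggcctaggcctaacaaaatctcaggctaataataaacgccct
The G and C content of the windows was 49.2% for Tnfrsf17, 63.2% for Tnfrsf13c and 54.0% for Tnfrsf13b, beside a median of 52.4% over all promoters.

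Among the costimulatory receptors, Cd40 was above the floor by both of its probe sets, which moved in opposite directions between the arrays. The probe set 1449473_s_at gave 357 on replicate 1 and 921 on replicate 2, 2.58-fold higher on replicate 2 (mean 639 ± 399, SD, n = 2). It stood at 2.20 times the floor of replicate 1 and 10.3 times that of replicate 2. The probe set 1460415_a_at gave 273 on replicate 1 and 111 on replicate 2, 2.46-fold higher on replicate 1 (mean 192 ± 114, SD, n = 2). It passed by less, at 1.68 and 1.24 times the floors. On replicate 2 its 110.9 was barely above the 95th percentile floor of 110.8. The mean log2 difference over both probe sets was 0.03. Thus the 2 probe sets gave no single direction for Cd40, though 1460415_a_at lay close to the floor on replicate 2.

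The opposition held under each scaling tried. The probe set 1449473_s_at was still at least 2-fold higher on replicate 2 after quantile normalization and after median centring, and the log2 difference of 1460415_a_at was -1.06 and -0.66 in these scalings. Within each array, 1449473_s_at moved from percentile 89.5 on replicate 1 to 95.6 on replicate 2, and 1460415_a_at from 84.1 to 64.8. Opposite differences of over 2-fold were found in 45 of 927 genes with at least 2 probe sets that passed both floors, or 4.85%. Which transcripts of Cd40 each probe set matches is not given in the sources used here.

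Cd27, the receptor for CD70 and in human blood a marker of memory B cells, was far below the floor. Its probe set 1452389_at gave 6.4 on replicate 1 and 16.7 on replicate 2, or 0.0395 and 0.186 of the respective floors. T cells also carry Cd27, and none of the 7 measured T cell markers was above the floor of either array. The ligand genes Cd70, Cd40lg and Fasl are named outside the rule, with their values known. Cd70 gave 26.4 on replicate 1 and 77.1 on replicate 2, and Cd40lg, which encodes the ligand of CD40, gave 26.7 and 8.8, all below the floor.

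The receptors for TNF itself were above the floor, by probe sets between 1.23 and 2.32 times its value. Tnfrsf1a encodes TNFR1, which has a death domain, and its probe set 1417291_at gave 241 on replicate 1 and 110 on replicate 2 (mean 175 ± 92.7, SD, n = 2). It was the receptor nearest to the threshold from above, at 1.49 times the floor on replicate 1 and 1.23 times on replicate 2. With the floor at the 95th percentile of the same probe sets, 223 and 110.8, Tnfrsf1a no longer passed, and the count of receptors fell to 4. Its difference, 2.19-fold higher on replicate 1 as deposited, was below 2-fold with either rescaling, at -0.84 on the log2 scale after quantile normalization and -0.50 after median centring. Of the 60 genes of other organs that set the floor, 3 also passed on both arrays. These were Mbp with 279 and 282, Pomc with 242 and 139, and Prm1 with 260 and 151, each higher than Tnfrsf1a on both arrays. Passing the floor by so little therefore does not by itself show that Tnfrsf1a was expressed.

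Tnfrsf1b encodes TNFR2, which lacks a death domain, and was measured by a pair of probe sets that did not give the same picture. The probe set 1418099_at gave 377 on replicate 1 and 170.5 on replicate 2, above the floor on both arrays and 2.21-fold higher on replicate 1 (mean 274 ± 146, SD, n = 2). The probe set 1448951_at gave 25.5 on replicate 1 and 56.1 on replicate 2, below the floor of each. Tnfrsf1b therefore counts as above the floor on the evidence of 1418099_at alone. With no floor applied, opposite differences of over 2-fold, as in this pair, were found in 1007 of 4956 genes with at least 2 probe sets, or 20.3%. The difference of 1418099_at was -1.14 on the log2 scale as deposited, -1.14 after quantile normalization and -0.51 after median centring.

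Monocytes and macrophages also carry the TNF receptors. Of their 6 markers, 2 were above the floor on both arrays, against 31.3% of all genes. The summed signal of the 6 markers was 898 on replicate 1 and 590.5 on replicate 2, but single markers moved either way. The samples were sorted for surface IgM and IgD, and what share of monocytes and macrophages remained was not measured here. Csf1r, the receptor for the macrophage growth factor, gave 286 and 249 by its brightest probe set. Its other probe sets moved in opposite directions, 1423593_a_at with 209 and 15.2 and 1419873_s_at with 23.2 and 96.7. Lyz2, a lysozyme gene, gave 291 and 178. The other markers of the list, Cd14, Itgam, Adgre1 and Cd68, were below the floor on both arrays. Cd14 and Adgre1 were lower on replicate 2, with 135 and 17.5 and with 149 and 71.2, while Itgam and Cd68 were higher there, with 29.2 and 48.8 and with 6.7 and 25.5. Their part in the TNF receptor signals was not tested.

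Fas was below the floor by its only probe set, 1460251_at, with 17.7 on replicate 1 and 3.9 on replicate 2. These signals were 0.109 and 0.0435 of the floors, and no fold is given. Of the germinal centre markers, 2 were measured. Bcl6, a transcription factor of germinal centre cells that naive B cells also express, was above the floor with 323 and 533, and Mybl1 was not, with 120 and 39.0. The ligand gene Fasl gave 60.4 and 34.4 by its brighter probe set.

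Of the 6 receptor probe sets above the floor, 3 were over 2-fold higher on replicate 1 and 1 was so on replicate 2. The shares among all gene probe sets that passed both floors were 13.3% and 14%. The 3 were 1460415_a_at of Cd40, Tnfrsf1a and 1418099_at of Tnfrsf1b, and the 1 was 1449473_s_at of Cd40. Over all 10 probe sets the counts were 5 and 3, beside 34.5% and 19.3% of all gene probe sets, but 4 of the 10 were below both floors, so nothing is read from their differences. With those 4 included, the median log2 difference was -0.65 as deposited, -0.68 after quantile normalization, -0.31 with log2(signal + 32) and -0.016 after median centring. Over all gene probe sets it was -0.33 as deposited and 0.044 after quantile normalization. The 6 probe sets above the floor lay on both sides of 0 in each of these scalings.

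**Figure D3:**
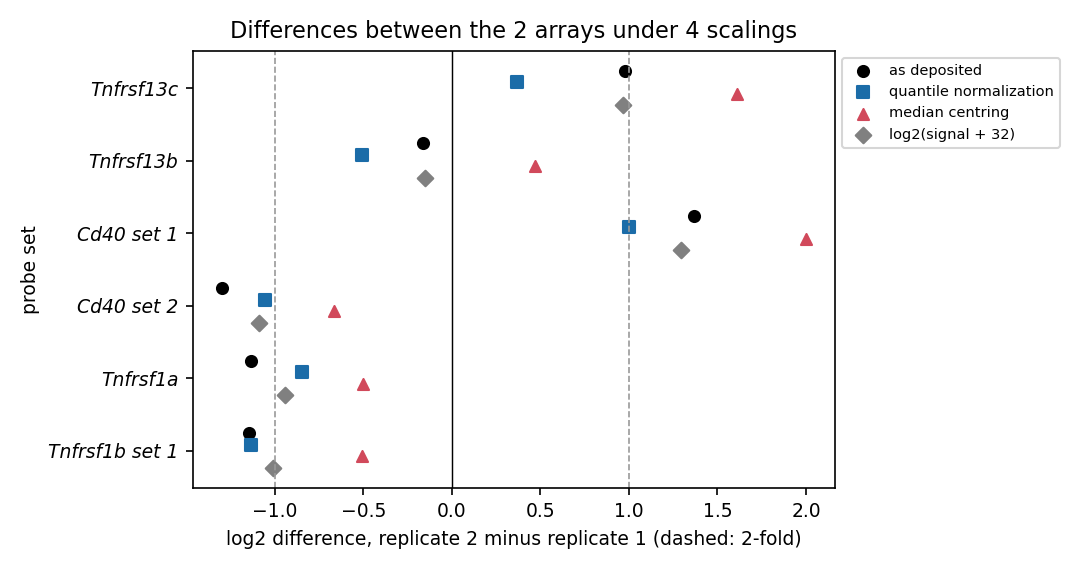
Log2 difference, replicate 2 minus replicate 1, of the 6 receptor probe sets above the floor, as deposited and under 3 other scalings, with 2-fold marked by dashed lines. Tnfrsf13c and the first Cd40 probe set stay above 0 and the second Cd40 probe set, Tnfrsf1a and Tnfrsf1b stay below 0 in each scaling, while Tnfrsf13b crosses 0 with median centring.

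The rest of the pathway was read from 5 lists of 82 genes, of which 69 were measured and 26 were above the floor on both arrays. A gene passes by any of its probe sets, and the lists differ in probe sets per gene. The 13 NF-kB pathway genes had 29, the 12 targets 30, the 14 adaptors 22, the 13 ligands 16 and the 17 other receptors 30. All 12393 genes had 20380. The part of this in the shares was not tested. Ligand genes were mostly below it, with 1 of 13 above, against 31.3% of all genes. That gene was Ltb, which encodes lymphotoxin beta, with 1952 on replicate 1 and 1119 on replicate 2 (mean 1535 ± 589, SD, n = 2). The gene for BAFF, Tnfsf13b, is named outside the rule, with its values known, and with 102 and 15.8 it was below the floor of each array. In these samples the BAFF receptor gene was thus above the floor and the BAFF gene below it.

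Of 17 other TNF receptor genes, 0 passed both floors, against 31.3% of all genes. As an example, the rule on signal names Tnfrsf4, which encodes the costimulatory receptor OX40, with 208 and 82.2, above the floor of replicate 1 only. Ltbr, the receptor for lymphotoxin, passed the floor of replicate 2 only, with 122 and 138, and is named with these values known. On single arrays 3 of the 17 passed on replicate 1 and 4 on replicate 2.

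Adaptor genes, which link the receptors to kinases and caspases, were above the floor in 7 of 14 cases, against 31.3% of all genes. Birc3, a ubiquitin ligase of the TRAF complexes, gave 1481 and 1664 (mean 1573 ± 130, SD, n = 2). Traf5 gave 295 and 376, Traf3ip2 gave 255 and 348, and Birc2, a relative of Birc3, gave 182 and 342. Of the 7, 0 were over 2-fold apart as deposited by the brightest probe set above the floor, where the shares of all such genes were 12.6% higher on replicate 1 and 14.3% higher on replicate 2. Birc2 was past 2-fold after quantile normalization, at 1.05 on the log2 scale, and Birc2 and Traf3ip2 were after median centring, at 1.55 and 1.08. Tnfaip3, a ubiquitin-editing inhibitor of NF-kB, passed the floor of replicate 1 only, with 277 against 3.9, and is named after its values were seen.

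Of the NF-kB pathway genes, 8 of 13 passed both floors, against 31.3% of all genes. The examples named by the rule on signal were Nfkbia, Tab2, Ikbkb and Rela. The NF-kB subunit gene Rela gave 841 on replicate 1 and 749 on replicate 2, and Tab2, an adaptor of the upstream kinase, gave 673 and 1212. Over 2-fold higher on replicate 2 by the brightest probe set were Ikbkb, the gene of an inhibitor kinase, with 563 and 1347, and Nfkbia, the gene of the inhibitor itself, with 2760 and 5965. Rel, a further subunit, was 3.09-fold higher on replicate 1, with 621 and 201. Other probe sets of Ikbkb and Nfkbia went the other way. The probe set 1432275_at of Ikbkb gave 273 and 83.8, below the floor on replicate 2, and 1420089_at of Nfkbia gave 525 and 239. A further Nfkbia probe set, 1448306_at, was nearly equal, with 698 and 752. Map3k14, the kinase NIK that links the BAFF receptor and CD40 to the alternative pathway, had no probe set above both floors, with 391 and 85.4 by its brightest. The alternative subunit genes were above the floor, Nfkb2 with 185 and 243 and Relb with 240 and 230. Map3k14, Nfkb2 and Relb are named after their values were seen.

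Genes listed as targets of BAFF and CD40 signals were above the floor in 10 of 12 cases, against 31.3% of all genes. The list was not limited to genes that these signals raise, and it holds the pro-apoptotic Bcl2l11. Mcl1, Cd83, Cr2 and Fcer2a are named by the rule on signal, which picks examples and does not order the genes by amount of RNA. Fcer2a, which encodes CD23, gave 1081 and 978 (mean 1029 ± 73.0, SD, n = 2) by its brighter probe set, and 315.5 and 9.4 by 1451713_a_at. The anti-apoptotic Mcl1 gave 1157 and 5019 by 1437527_x_at, whose suffix marks probes that may also match other transcripts. Its other probe sets differed by 1.09-fold to 5.85-fold, all higher on replicate 2 as deposited. After quantile normalization 1448503_at, with 1086 and 1325.5, turned to -0.37 on the log2 scale. The probe set 1416880_at, with 568 and 620, turned to -0.32. The remaining probe set without the suffix, 1416881_at, with 359 and 1018, stayed at 1.12. The complement receptor gene Cr2 gave 940 and 2275, and the activation marker Cd83 2510 and 1288. The survival gene Bcl2 gave 183 and 347, 1.90-fold apart, and it too is named with its values known. Over 2-fold higher on replicate 2 by the brightest probe set were Mcl1, Cr2 and the pro-apoptotic Bcl2l11, with 338 and 1142, whose probe set 1456006_at went the other way with 208 and 93.7. Over 2-fold higher on replicate 1 was Icosl, a costimulatory ligand gene, with 629.5 and 191. After quantile normalization Ikbkb, Nfkbia and Cr2 were within 2-fold, with log2 differences of 0.70, 0.72 and 0.63, while Mcl1, Bcl2l11, Rel and Icosl were not, with 1.64, 1.40, -1.82 and -1.90. The same scaling took Cd83, Bcl2 and Ltb past 2-fold, to -1.54, 1.05 and -1.40.

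**Figure D4:**
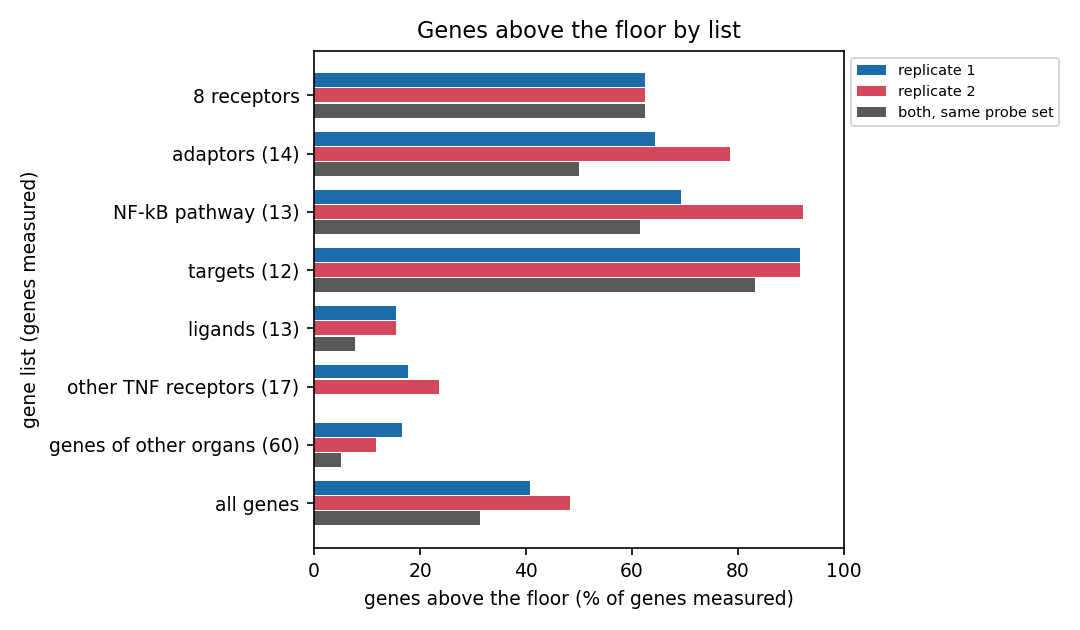
Share of measured genes above the floor (% of genes measured) on replicate 1, on replicate 2 and on both by the same probe set, for the 8 receptors, 5 pathway lists, the genes of other organs that set the floor and all genes. Targets, NF-kB pathway genes and adaptors lie above the 31.3% of all genes on both arrays, and ligands and other TNF receptors lie below it. The lists differ in probe sets per gene.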

How the data were processed

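Biotinylated cRNA from 6 µg of total RNA was hybridised, per the labels' protocols. The authors deposited 1 signal intensity per probe set on a linear scale, made with MAS5 per the submitters' processing notes, with version and parameters not given in the sources used here. Of 22690 probe sets, 64 controls were left out. Of the rest, 20380 named 1 gene, 691 several and 1555 none, by the supplied platform annotation, and the symbols of the 8 receptors were the same in RefSeq by Entrez identifier. The floor, log2 differences and counts were computed with Python 3.11.15, numpy 2.4.6 and pandas 2.3.3. The steps were also run on simulated data with less noise than these arrays, which does not measure their accuracy here. A gene's brightest probe set is that of highest mean log2 value. Signals are not counts, and having 2 arrays limits the precision.

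The receptors and lists were chosen with earlier results of these arrays known. The promoter motifs were chosen after the signals were seen. Every receptor probe set is named. Of each pathway list the text names up to 4 genes of highest mean log2 signal above the floor, those over 2-fold apart there, or the highest where none passed. Others are marked where they appear. Alternatives changed the floor (95th percentile, array median), the arrays (each alone), the scale (quantile normalization, median centring, log2(signal + 32)) and the probe sets (without those ending in _x_at, their mean, 1 a gene).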

Additional observations from a re-analysis of the deposited data

How the results depend on the processing

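With the floor at the array median, which is lower, or on either array alone, receptors could only be added to the 5 above the floor. None was added. At the 95th percentile, where receptors could be lost, Tnfrsf1a dropped out. Probe sets over 2-fold higher on replicate 1 numbered 5 as deposited, 2 with median centring and 3 with log2(signal + 32). Those over 2-fold higher on replicate 2 numbered 3 as deposited and 1 with log2(signal + 32), which compresses low signals. Pathway genes above the floor numbered 26 on both arrays, 18 at the 95th percentile and 38 at the array median, and between 34 and 40 on single arrays. The largest shift in the receptor median was from -0.65 to -0.016, with median centring. No receptor probe set ends in _x_at, so leaving these out changed none of the receptor values. The mean over probe sets took Tnfrsf1b from -1.14 to -0.0033 and Cd40 from 1.37 to 0.03 on the log2 scale. No paired analysis was possible because the samples form 1 group. With 2 arrays, signals below the floor, such as those of Tnfrsf17, Cd27 and Fas, do not show that a transcript was absent.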
